A study of Mus musculus with 6 samples.

Results

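The triglyceride synthesis genes are 10 enzymes of the glycerol phosphate route and its side entry, chosen by their gene symbols and found as 10 of the 56691 genes counted in liver RNA. They are *Gpd1*, *Gpam*, *Gpat4*, *Agpat2*, *Agpat3*, *Lpin1*, *Lpin2*, *Mogat1*, *Dgat1* and *Dgat2*, and the rule takes the symbols alone, although earlier results of these data were known when the genes were listed. Of the 10 genes, 9 passed the minimum for testing, a mean FPKM of at least 1 over all libraries, and *Mogat1* did not. FPKM is the read count of a gene divided by its exonic length and by the library's total, and CPM, used below for comparisons of 1 gene between libraries, is the count scaled for library size after TMM adjustment, which evens out differences in library composition.

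The study asked how hepatic ChREBP, a transcription factor that responds to sugars and is encoded by *Mlxipl*, acts in pregnant mice on a high-fructose diet (HFrD). The KPF group was 3 pregnant h*Chrebp* KO dams on HFrD (replicates 1, 2 and 3), and the WPF group was 3 pregnant control dams on HFrD (replicates 2, 3 and 4). Both groups carried *Chrebp* flox/flox alleles on a C57BL/6J background by the study's methods, and the KPF dams also carried 1 copy of an Alb-Cre transgene, whose albumin promoter limits the loss of exon 2 of *Mlxipl* to hepatocytes, whereas the sample labels call the WPF genotype WT. Both groups were mated with *Chrebp* flox/flox males, received HFrD from mating and were killed late in pregnancy. The age of the dams and the hour of collection are not given in the sources used here, and the state of the gene in other cell types of the liver was not measured here.

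In hepatocytes, glycerol-3-phosphate receives a first fatty acid from a GPAT enzyme and a second from an AGPAT enzyme, which makes phosphatidic acid. A lipin removes the phosphate to give diacylglycerol, and a DGAT enzyme adds the last fatty acid to give triglyceride, which is stored in droplets or secreted on lipoproteins. Most steps have several isoenzymes that differ in cell compartment and regulation, and ChREBP is best known in liver for switching on glycolytic and fatty acid synthesis genes after a sugar-rich meal.

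The libraries held 10694496 to 14496630 counted reads, and no pair of libraries of 1 group agreed within counting noise (chi-square per gene of at least 35.5). The KPF levels of *Mlxipl* (182, 709 and 860 CPM) did not reach its WPF levels (974, 1277 and 891 CPM), but the log2 difference of -0.84 was not called (adjusted p = 0.584 from edgeR) and was -0.42 without KPF replicate 1. These counts cover the whole gene and do not check the loss of exon 2. The defining hepatocyte markers were abundant in all 6 libraries (summed level of 80982 to 107690 CPM in KPF and 104980 to 175090 CPM in WPF, 0 of 6 called). KPF replicate 2 stood apart in striated muscle markers, whose sum over 5 genes was 3006 CPM there and 4.63 to 10.6 CPM in the other 5 libraries. Mitochondrial genes took 33.2 to 35.0% of the reads in KPF and 18.7 to 29.1% in WPF. Clock genes split the libraries across the groups: *Dbp* exceeded *Arntl* in KPF replicates 1 and 2 and WPF replicate 4 (38.8 to 288 CPM against 1.08 to 2.41 CPM), and *Arntl* exceeded *Dbp* in KPF replicate 3 and WPF replicates 2 and 3 (21.2 to 31.3 CPM against 1.57 to 5.94 CPM). In such bulk RNA, fewer cells of a type and less RNA per cell cannot be told apart.

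Among the 9 tested members, *Gpam* and *Lpin1* were called lower in KPF and none was called higher. A gene was called at an unadjusted p under 0.05 from edgeR's quasi-likelihood test together with a change of at least 1.5-fold, a rule that called 3.98% of the 10866 tested genes lower and 5.83% higher (9.81% in either direction). No member passed Benjamini-Hochberg adjustment, and neither did any other tested gene: edgeR gave 0 genes at an adjusted p under 0.05 (smallest adjusted p = 0.397) and 1176 genes (10.8%) at an unadjusted p under 0.05, whereas DESeq2 gave 156 genes at an adjusted p under 0.05, *Gpam* (adjusted p = 0.00658) and *Lpin1* (adjusted p = 0.0142) among them. The fitted log2 difference, KPF minus WPF, was negative for 8 of the 9 members and positive for *Gpat4* (0.43), with a median of -0.51 beside 0.02 over all tested genes. In CPM the groups were separate for *Gpam* and *Lpin1*, with KPF below, and for *Gpat4*, with KPF above, and over all tested genes such a separation was found below in 8.15% and above in 7.55%. In FPKM the groups stayed separate for *Gpam* and *Lpin1* but overlapped for *Gpat4*. With 3 dams in each group, an exact two-sided permutation test cannot give a p below 0.1.

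**Figure D1:**
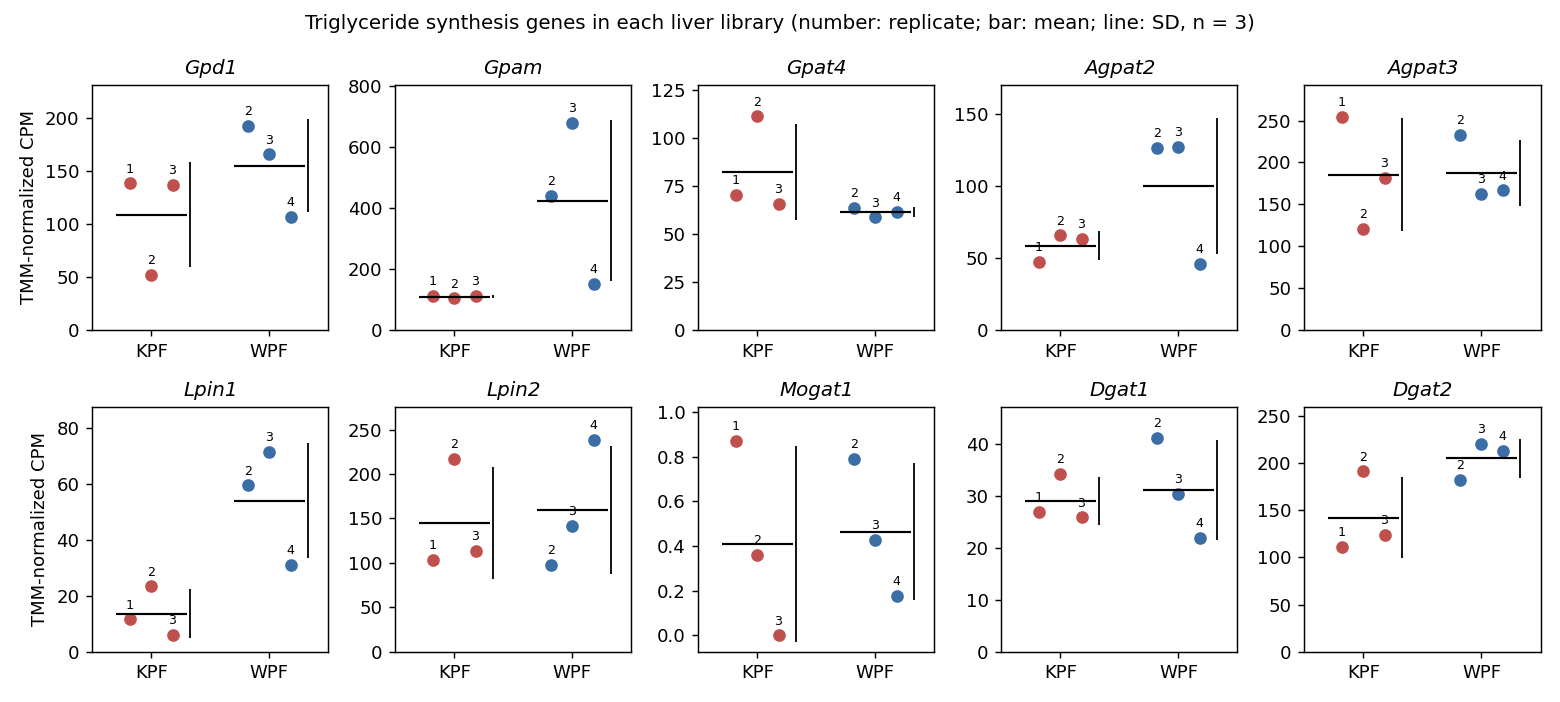
Level of each of the 10 triglyceride synthesis genes in TMM-normalized CPM (vertical axis, 1 scale per gene), with KPF libraries in red and WPF libraries in blue, the replicate number at each point, a bar at the group mean and a line for the SD (n = 3). Red and blue points are apart for *Gpam* (112, 103 and 111 against 440, 680 and 152 CPM), *Lpin1* and *Gpat4*, and they overlap for the other genes.

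Stretches of 250 bases upstream of annotated start sites (RefSeq, GRCm38.p6) were at hand for 6 of the 10 genes in 9 windows. A single window each is shown of both called genes (*Gpam* has 2 and *Lpin1* 1) and of *Lpin2* (of 3), the paralog of *Lpin1* that was not called, 5′ to 3′ on the strand of the gene. The *Gpam* and *Lpin2* windows shown each hold a motif match, so they are no even comparison of called and uncalled genes. They lie at chr19:55127239-55127488 on the minus strand for *Gpam*, chr12:16610967-16611216 on the minus strand for *Lpin1* and chr17:71183282-71183531 on the plus strand for *Lpin2*, and capitals mark matches to the motifs searched.
Gpam: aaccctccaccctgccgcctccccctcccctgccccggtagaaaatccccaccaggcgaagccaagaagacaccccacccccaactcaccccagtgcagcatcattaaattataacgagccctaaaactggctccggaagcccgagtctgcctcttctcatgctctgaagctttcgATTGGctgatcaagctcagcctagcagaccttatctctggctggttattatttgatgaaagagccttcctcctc
Lpin1: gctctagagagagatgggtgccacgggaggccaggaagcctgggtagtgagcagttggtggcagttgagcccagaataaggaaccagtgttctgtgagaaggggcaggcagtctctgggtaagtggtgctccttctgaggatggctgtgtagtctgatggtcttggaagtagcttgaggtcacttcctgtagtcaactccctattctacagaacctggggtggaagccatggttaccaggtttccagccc
Lpin2: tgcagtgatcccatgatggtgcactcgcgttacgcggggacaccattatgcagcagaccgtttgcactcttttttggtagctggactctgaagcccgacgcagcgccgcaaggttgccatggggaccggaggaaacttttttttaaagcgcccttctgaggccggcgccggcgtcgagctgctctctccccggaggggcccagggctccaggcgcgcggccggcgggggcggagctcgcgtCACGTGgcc
Both strands were searched for the E-box CACGTG, for paired E-boxes of the ChREBP type (CACGNG and CNCGTG spaced by 5 bases), for the sterol element TCACCCCAC and for CCAAT. The CCAAT box was found on the opposite strand in the *Gpam* window shown, 74 bases before the start site, and also in an *Lpin2* window that is not shown (233, 165 and 57 bases before the start site), and 33.8% of the 32851 windows of this length in the table held one. The E-box was found 9 bases before the start site of *Lpin2* in the window shown and in 6.02% of all windows. The *Lpin2* windows that are not shown held no E-box, and the *Gpam* window that is not shown held no match. None of the motifs was in the *Lpin1* window shown, and paired E-boxes (0.0396% of all windows) and the sterol element (0.496%) were in none of the 9 windows of the members. A match is a match of letters alone, genes can use other start sites, and no binding was measured here.

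The substrate step is held by *Gpd1*, the cytosolic glycerol-3-phosphate dehydrogenase that makes glycerol-3-phosphate from a glycolytic intermediate (ENSMUSG00000023019, chr15:99615396-99622886, plus strand). This and the other gene coordinates are those of the deposited table (GRCm39). KPF replicates 1, 2 and 3 held 138, 51.7 and 136 CPM of *Gpd1*, against 192, 165 and 107 CPM for WPF replicates 2, 3 and 4. The groups overlapped, with KPF replicate 2 lowest and WPF replicate 4 below the other KPF libraries. The log2 difference was -0.51 (95% confidence interval -1.48 to 0.46, edgeR unadjusted p = 0.259, adjusted p = 0.678), and without KPF replicate 2, the library with muscle RNA, it was -0.18.

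*Gpam*, which encodes the mitochondrial GPAT that starts glycerolipid synthesis in liver, was lower in every KPF library (ENSMUSG00000024978, chr19:55055700-55115670, minus strand). The KPF libraries stood within a narrow band of 112, 103 and 111 CPM (109 ± 5.06, SD, n = 3), and the WPF libraries were spread over 440, 680 and 152 CPM (424 ± 264, SD, n = 3). These rest on 1145 to 1162 reads per KPF library and 2564 to 9551 reads per WPF library. The log2 difference was -1.96 (SE 0.50, 95% confidence interval -3.13 to -0.79), or 3.89-fold lower, and edgeR's unadjusted p was 0.00495 (adjusted p = 0.430), while the exact permutation p was 0.1, the smallest possible. Leaving out each library in turn gave -2.37 (without WPF replicate 4) to -1.44 (without WPF replicate 3), and *Gpam* was called in each of these 6 fits. WPF replicate 4 lay closer to the KPF libraries than to the other WPF libraries.

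Its endoplasmic reticulum counterpart *Gpat4*, which catalyses the same reaction, was the only tested member with a positive difference (ENSMUSG00000031545, chr8:23661281-23698362, minus strand). The KPF libraries held 70.3, 111 and 65.7 CPM and the WPF libraries 63.6, 58.5 and 61.4 CPM, so the groups did not overlap but KPF replicate 3 was close to WPF replicate 2. The highest value was that of KPF replicate 2, and the difference of 0.43 (95% confidence interval -0.17 to 1.03, edgeR unadjusted p = 0.139, adjusted p = 0.575) was not called. Without KPF replicate 2, the library with muscle RNA, it was 0.146 (edgeR unadjusted p = 0.529, adjusted p = 0.831).

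*Agpat2*, whose product is a main AGPAT of liver and adipose tissue and whose loss causes lipodystrophy in people, measured 47.2, 65.8 and 63.3 CPM in KPF, against 127, 128 and 45.8 CPM in WPF (ENSMUSG00000026922, chr2:26483069-26494429, minus strand). WPF replicates 2 and 3 were above all KPF libraries, and WPF replicate 4 was below them. The log2 difference was -0.77 (95% confidence interval -1.70 to 0.16, edgeR unadjusted p = 0.0933, adjusted p = 0.517). Without WPF replicate 4 it was -1.12 and was called (edgeR unadjusted p = 0.00366, adjusted p = 0.244). The gene overlaps *Egfl7* on the opposite strand by 64 bases, which received 227 to 561 reads.

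*Agpat3*, a paralog that also accepts polyunsaturated acyl chains, showed no detectable difference (ENSMUSG00000001211, chr10:78105012-78188323, minus strand). Its values of 254, 120 and 182 CPM in KPF and 233, 163 and 167 CPM in WPF overlapped between the groups, and the log2 difference of -0.01 had a 95% confidence interval of -0.78 to 0.75 (edgeR unadjusted p = 0.969, adjusted p = 0.987).

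*Lpin1* encodes a phosphatidate phosphatase that also acts in the nucleus as a partner of PPARalpha and PGC-1alpha, and it had the most negative fitted difference of the members, next to that of *Gpam* (ENSMUSG00000020593, chr12:16585670-16696967, minus strand). KPF replicates 1, 2 and 3 held 11.5, 23.3 and 6.04 CPM (119, 260 and 62 reads), and WPF replicates 2, 3 and 4 held 59.4, 71.3 and 31.1 CPM (678, 1002 and 524 reads). The groups did not overlap, and the nearest values were those of KPF replicate 2 and WPF replicate 4. The log2 difference was -1.98 (SE 0.52, 95% confidence interval -3.18 to -0.78), or 3.95-fold lower, and edgeR's unadjusted p was 0.00541 (adjusted p = 0.430, exact permutation p = 0.1). It was called in all 6 fits that left out a library (-2.63 to -1.63). *Lpin1* is also a gene of skeletal muscle, and KPF replicate 2 with its muscle RNA had the highest KPF value. Without that library the log2 difference was -2.63 (edgeR unadjusted p = 0.000662, adjusted p = 0.327).

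*Lpin2*, a lipin abundant in liver, measured 103, 217 and 114 CPM in KPF, against 97.2, 142 and 238 CPM in WPF (ENSMUSG00000024052, chr17:71489555-71556812, plus strand). Both groups ranged widely and overlapped. The log2 difference was -0.14 (95% confidence interval -1.12 to 0.85, edgeR unadjusted p = 0.755, adjusted p = 0.919) and turned positive without KPF replicate 1 (0.06) or WPF replicate 4 (0.27), so no direction can be given for it. The high values were those of KPF replicate 2 and WPF replicate 4, the libraries with the most *Dbp* (208 and 288 CPM).

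*Mogat1*, which makes diacylglycerol from monoacylglycerol without glycerol-3-phosphate, was close to undetected (ENSMUSG00000012187, chr1:78487628-78514810, plus strand). It received 9, 4 and 0 reads in KPF and 9, 6 and 3 reads in WPF, and the count of 0 in KPF replicate 3 allows a level of up to 0.292 CPM. At this depth no difference was detectable (log2 difference -0.22, SE 1.02, edgeR unadjusted p = 0.832 without the FPKM minimum, adjusted p = 0.960).

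The last step has unrelated enzymes. *Dgat1*, a multispanning protein of the endoplasmic reticulum (ENSMUSG00000022555, chr15:76386215-76396153, minus strand), measured 26.8, 34.2 and 25.8 CPM in KPF, against 41.1, 30.3 and 21.9 CPM in WPF. The groups overlapped, with both the highest and the lowest value in WPF, and the log2 difference was -0.10 (95% confidence interval -0.72 to 0.52, edgeR unadjusted p = 0.712, adjusted p = 0.904).

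*Dgat2*, which is linked to newly made fatty acids and lipid droplets in liver (ENSMUSG00000030747, chr7:98802865-98831926, minus strand), measured 112, 191 and 124 CPM in KPF (142 ± 42.9, SD, n = 3), against 182, 221 and 213 CPM in WPF (205 ± 20.6, SD, n = 3). KPF replicate 2 lay within the WPF range and the other KPF libraries lay below it. The log2 difference was -0.53 (95% confidence interval -1.18 to 0.12, edgeR unadjusted p = 0.0970, adjusted p = 0.525). Without KPF replicate 2 it was -0.81 and was called (edgeR unadjusted p = 0.0148, adjusted p = 0.426).

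**Figure D2:**
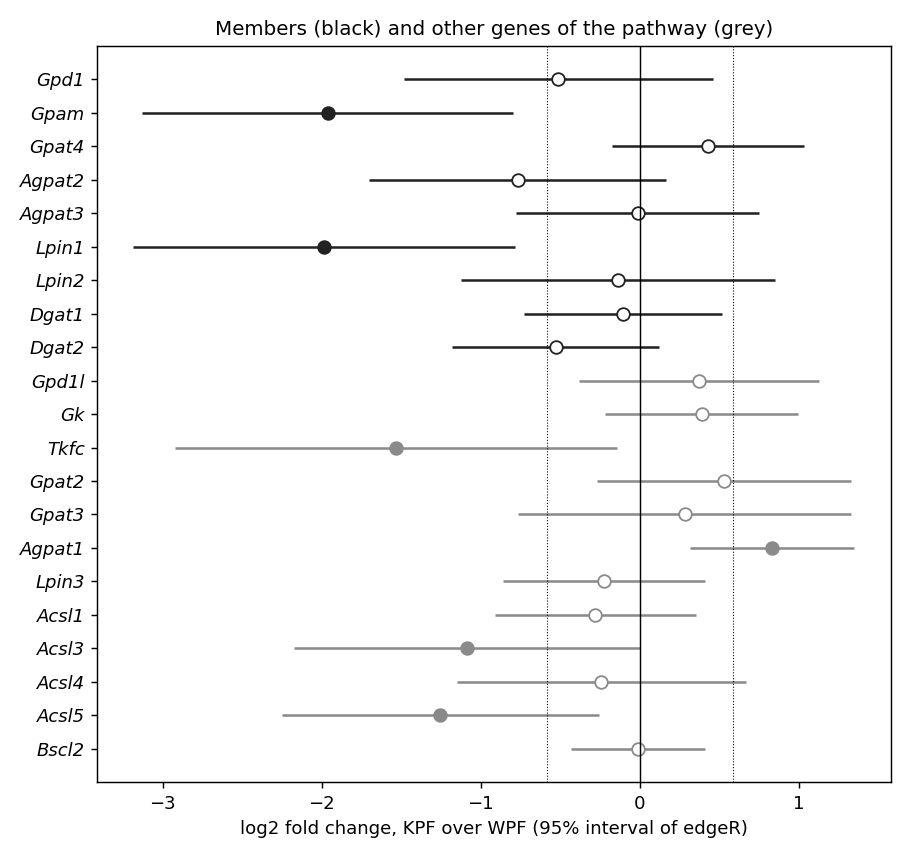
Log2 fold change, KPF over WPF, of the 9 tested triglyceride synthesis genes (black) and 12 other tested genes of the route (grey), with points at the estimate of edgeR, lines for its 95% confidence interval, filled points for called genes and dotted lines at 1.5-fold. The intervals of *Gpam* (-3.13 to -0.79) and *Lpin1* (-3.18 to -0.78) lie below 0, those of the other 7 tested members include it, and *Agpat1* is the only filled point above it.

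Per length of transcript, the order of the members differed between the groups for *Gpam* and *Gpat4* most of all. In WPF the mean FPKM was highest for *Dgat2* (69.6), followed by *Gpam* (64.6), *Gpd1* (52.9), *Agpat2* (47.2), *Agpat3* (24.5), *Lpin2* (14.0), *Dgat1* (10.3), *Gpat4* (9.47), *Lpin1* (5.53) and *Mogat1* (0.287). Only the ranges of *Gpat4* and *Lpin1* and those of *Lpin1* and *Mogat1* were separate among neighbours in this order. In KPF the order was *Dgat2* (43.9 FPKM), *Gpd1* (34.4), *Agpat2* (26.1), *Agpat3* (22.5), *Gpam* (15.4), *Gpat4* (11.7), *Lpin2* (11.3), *Dgat1* (8.99), *Lpin1* (1.32) and *Mogat1* (0.257), and only *Dgat1* and *Lpin1* were neighbours with separate ranges. *Gpam* thus ranked 2nd in WPF and 5th in KPF and *Gpat4* 8th in WPF and 6th in KPF, while *Dgat2* ranked 1st in both.

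Isoenzymes of 1 step were then compared within each library, where differences in library size cancel. The FPKM ratio of *Gpam* to *Gpat4* was 1.60, 0.931 and 1.70 in KPF and 6.95, 11.6 and 2.49 in WPF, without overlap. The log2 ratio was lower in KPF by 2.10 on average, or 4.30-fold (exact two-sided permutation test, p = 0.1, the smallest possible), and without 1 library at a time this difference ran from -2.72 to -1.61. *Gpam* made up 61.5, 48.2 and 63.0% of the FPKM of this pair in KPF and 87.4, 92.1 and 71.3% in WPF.

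The *Lpin1* to *Lpin2* ratio was likewise lower in every KPF library. It was 0.137, 0.132 and 0.0655 in KPF and 0.753, 0.619 and 0.161 in WPF, a difference of 3.98-fold in the mean log2 ratio (exact permutation p = 0.1), and the KPF values came near that of WPF replicate 4. *Lpin1* was 12.1, 11.7 and 6.14% of the pair in KPF and 42.9, 38.2 and 13.8% in WPF, so *Lpin2* was the main lipin of the pair in all 6 libraries.

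The ratios of the other pairs overlapped between the groups. *Agpat2* to *Agpat3* gave 0.679, 2.0 and 1.27 in KPF and 2.0, 2.87 and 1.00 in WPF (difference in log2 ratio -0.58, exact permutation p = 0.5). *Dgat2* to *Dgat1* gave 4.12, 5.55 and 4.76 in KPF and 4.39, 7.22 and 9.65 in WPF (difference in log2 ratio -0.50, exact permutation p = 0.3), and *Dgat2* made up at least 80.5% of the pair in every library. Since 4 ratios were compared and 0.1 is the smallest p the design allows, none could pass a correction.

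**Figure D3:**
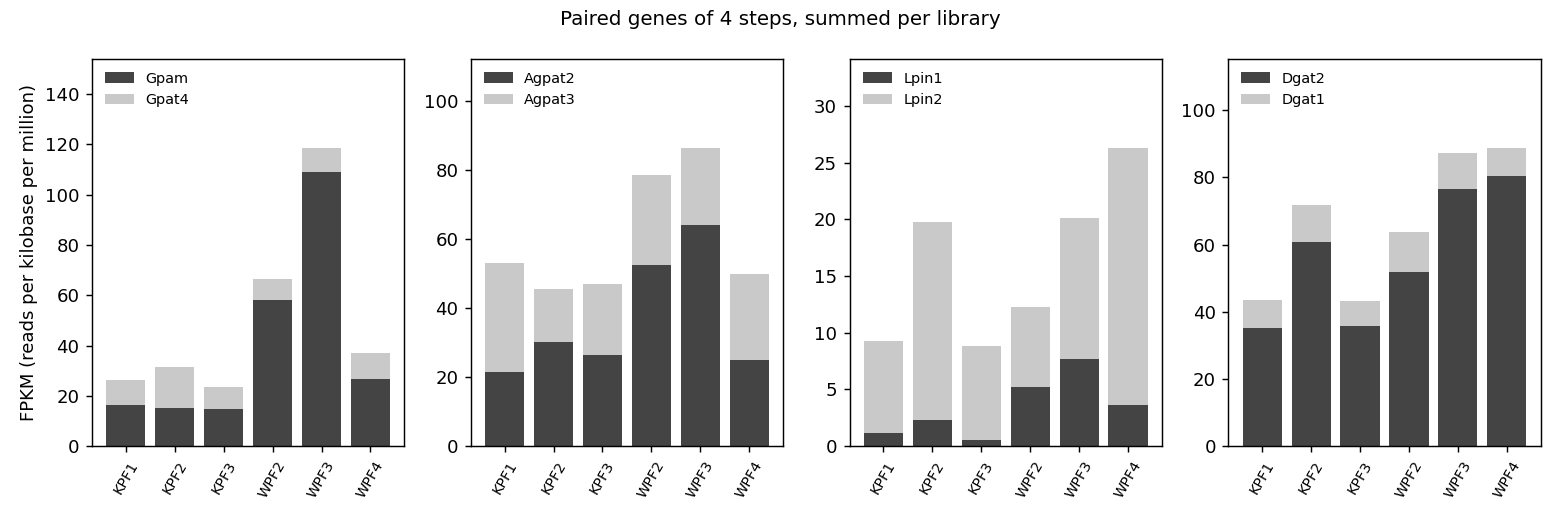
FPKM of the isoenzymes of 4 steps in each library, stacked, with 1 panel per pair and replicate numbers after the group name. The dark part of the bars, *Gpam* in the first panel and *Lpin1* in the panel of lipins, is smaller in every KPF library than in every WPF library, and *Dgat2* makes up most of each bar in its panel.

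The 2 genes of each pair were also added up, a sum that was chosen after the values were seen, whose fold must lie between those of its genes and which leaves out other isoenzymes of the step such as *Agpat1*. *Gpam* and *Gpat4* together came to 27.2 ± 4.0 FPKM in KPF and 74.1 ± 41.2 FPKM in WPF (SD, n = 3, exact permutation p = 0.1, KPF below). The lipin pair came to 12.6 ± 6.17 FPKM in KPF and 19.6 ± 7.04 FPKM in WPF, where *Lpin2* carried most of the level and the groups overlapped (exact permutation p = 0.2). The AGPAT pair (48.6 ± 4.01 against 71.7 ± 19.3 FPKM) and the DGAT pair (52.9 ± 16.4 against 79.9 ± 14.0 FPKM) also overlapped (exact permutation p = 0.2 for each).

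The members did not all follow the same order of libraries. WPF replicate 4 was the lowest WPF library for 5 of the 9 tested members and the highest for 1, and KPF replicate 2 was the highest KPF library for 6 and the lowest for 3. Over the 6 libraries, the Pearson correlation with *Gpam* was 0.883 for *Agpat2* and 0.836 for *Lpin1*, 0.635 for *Gpd1* and 0.564 for *Dgat2*, but -0.26 for *Lpin2* and -0.56 for *Gpat4*. These coefficients describe 6 libraries that include the group difference and share its depth and composition. Among all tested genes *Agpat2* ranked 237th and *Lpin1* 426th in likeness to *Gpam*.

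The 5 genes most like *Gpam* were *Me1* (r = 0.993), the gene ENSMUSG00000120528 without a symbol (0.992), *Cdk20* (0.992), *H2-K2* (0.991) and *Wbp2* (0.990). The gene without a symbol was near the floor in KPF (0.0965, 0.179 and 0.195 CPM, where 3 reads make 0.269 to 0.292 CPM). It measured 3.94, 7.05 and 0.356 CPM in WPF, so its likeness rests partly on values of few reads. *Me1*, the cytosolic malic enzyme that supplies NADPH, measured 6.95, 9.32 and 9.93 CPM in KPF, against 93.6, 159 and 14.9 CPM in WPF, again with WPF replicate 4 between the groups. *H2-K2* belongs to a family of near-identical histocompatibility genes, and its reads may be shared among them.

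Libraries alike in their clock genes can be set side by side, a grouping made after those genes were seen. Where *Arntl* exceeded *Dbp*, *Gpam* was at 111 CPM in the KPF library and at 440 and 680 CPM in the WPF libraries, and *Lpin1* at 6.04 CPM against 59.4 and 71.3 CPM. Where *Dbp* exceeded *Arntl*, *Gpam* was at 112 and 103 CPM in the KPF libraries and at 152 CPM in the WPF library, and *Lpin1* at 11.5 and 23.3 CPM against 31.1 CPM. The log2 differences were -2.29 and -0.50 for *Gpam* and -3.43 and -0.93 for *Lpin1*, each with a single library in 1 arm and so with no test, and that of *Gpam* in the second set was smaller than 1.5-fold. With the *Dbp* to *Arntl* ratio as a covariate, both genes were called, *Gpam* at -1.35 (edgeR unadjusted p = 0.0156, adjusted p = 0.644) and *Lpin1* at -2.05 (edgeR unadjusted p = 0.0183, adjusted p = 0.644). *Dgat2* was also below in both sets (-0.69 and -0.55), whereas *Agpat2* was below in the first set (-1.01) and above in the other (0.28).

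**Figure D4:**
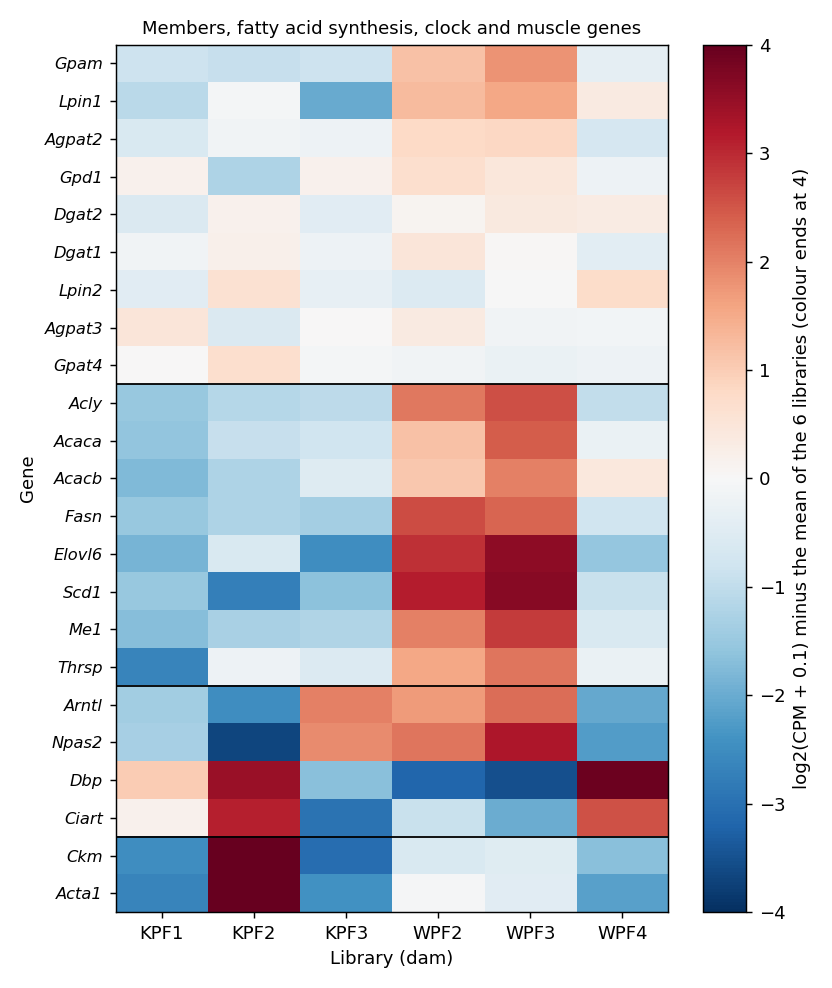
Log2(CPM + 0.1) of 23 genes in each of the 6 libraries, as the difference from the mean of that gene over the libraries, red for above and blue for below (colour ends at 4). From top to bottom the blocks hold the 9 tested triglyceride synthesis genes, 8 fatty acid synthesis genes, 4 clock genes and 2 muscle genes. *Gpam* is above its mean in WPF replicates 2 and 3 alone, as most fatty acid synthesis genes are, whereas the clock genes set KPF replicate 3 with those 2 libraries.

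A list of 16 other genes of the route, covering fatty acid activation, other isoenzymes and droplet assembly, had 12 tested genes. Of these, 3 were called lower and 1 higher (3.98% and 5.83% of all tested genes), with a median log2 difference of -0.12. *Agpat1*, the broadly expressed AGPAT of the endoplasmic reticulum, was the one called higher, with 56.7, 66.5 and 42.2 CPM in KPF, against 31.3, 31.0 and 30.6 CPM in WPF. All KPF libraries were above all WPF libraries, by 0.83 on the log2 scale (SE 0.22, edgeR unadjusted p = 0.00617, adjusted p = 0.430), and the call held in each of the 6 fits without a library (0.67 to 0.99). The difference of *Agpat1* and that of *Agpat2* (-0.77) were thus opposite in sign.

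The genes called lower were an activating enzyme pair and a fructose enzyme. *Acsl5*, an acyl-CoA synthetase, measured 122, 59.7 and 147 CPM in KPF, against 298, 334 and 152 CPM in WPF (log2 difference -1.25, edgeR unadjusted p = 0.0202, adjusted p = 0.430). The groups did not overlap, but the call was lost without WPF replicate 2 (-1.15, edgeR unadjusted p = 0.0590) or WPF replicate 3 (-1.04, edgeR unadjusted p = 0.0705). *Tkfc*, which phosphorylates the glyceraldehyde released from fructose, measured 261, 141 and 127 CPM in KPF, against 713, 674 and 144 CPM in WPF (-1.53, edgeR unadjusted p = 0.0349, adjusted p = 0.442), and lost the call when replicate 2 or 3 of either group was left out (-1.40 to -1.21, edgeR unadjusted p = 0.0812 to 0.112) and with the clock covariate (-0.78, edgeR unadjusted p = 0.244). Limma on log2(FPKM + 0.1) did not call *Tkfc* either (-1.42). The remaining called gene, *Acsl3*, lay just inside the threshold (-1.09, adjusted p = 0.461 from edgeR), lost the call on leaving out KPF replicate 1, KPF replicate 2, WPF replicate 2 or WPF replicate 3 (-1.25 to -0.41) and with the clock covariate (-0.66), and is named here after its values were seen. *Acsl3* was also not called with DESeq2's size factors, with limma on log2(FPKM + 1) or log2(FPKM + 0.1), or at a mean FPKM of at least 5 (-1.08 to -0.92). *Lpin3*, *Gpat2* and *Gpat3*, the other lipin and GPAT isoenzymes of the list, were not called (edgeR unadjusted p = 0.432, 0.165 and 0.549).

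Genes of fatty acid synthesis were called lower in 8 of 8 cases (3.98% of all tested genes), with a median log2 difference of -3.20 beside -0.51 for the triglyceride synthesis genes, and this pattern was known when the lists were drawn up. Without WPF replicate 3 the call of *Thrsp* was lost, which left 7, and with the clock covariate those of *Elovl6* and *Thrsp*, which left 6. *Acacb* (-2.41), *Scd1* (-4.74) and *Me1* (-3.35) had the smallest p in that list (edgeR unadjusted p = 0.00146, 0.00225 and 0.00245, adjusted p = 0.415 for each). The summed level of the 8 genes was 576 to 842 CPM in KPF and 11488, 15193 and 1224 CPM in WPF replicates 2, 3 and 4, and the WPF libraries were thus in the same order as for *Gpam*. Of the members, *Gpam* and *Lpin1* had log2 differences (-1.96 and -1.98) nearest to those of this list, and *Dgat1*, *Agpat3* and *Lpin2* had the differences farthest from them among the negative ones (-0.10, -0.01 and -0.14).

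Among 10 genes of fasting and PPARalpha, 1 was called higher and 0 lower (5.83% and 3.98% of all tested genes), with a median of 0.05. Among 13 clock genes 0 were called in either direction (smallest edgeR unadjusted p = 0.258, for *Npas2*). *Pck1*, the gluconeogenic enzyme called higher, measured 270, 1744 and 326 CPM in KPF, against 201, 131 and 318 CPM in WPF. Its difference of 1.85 (edgeR unadjusted p = 0.0409, adjusted p = 0.453) became 0.46 and was not called without KPF replicate 2 (edgeR unadjusted p = 0.278), and the call was also lost without WPF replicate 2 (1.80) or WPF replicate 3 (1.59) and with the clock covariate (1.13). Library totals in place of TMM (1.72) and limma on log2(FPKM + 1) (1.26) or log2(FPKM + 0.1) (1.27) did not call *Pck1* either. Adipocyte markers had summed levels of 9.93 to 60.2 CPM in KPF and 4.99 to 11.9 CPM in WPF, *Lep* at 0 in all libraries and *Adipoq* at no more than 1.25 CPM. *Plin1* (9, 12 and 1 reads in KPF, and 0, 0 and 1 in WPF) and *Retn* (4, 43 and 8 reads in KPF, and 0, 1 and 0 in WPF) were too low for testing. In CPM, every KPF library was above every WPF library for these genes. Both tested genes of that list were called higher in KPF (5.83% of all tested genes), *Cfd* (44, 195 and 13 reads in KPF, and 0, 2 and 0 in WPF) and *Fabp4* (35.1, 36.6 and 7.79 CPM in KPF, against 11.9, 7.97 and 4.93 CPM in WPF). *Fabp4* overlapped between the groups (edgeR unadjusted p = 0.0212, adjusted p = 0.430) and was called in only 2 of the 6 fits that left out a library. *Cfd* met the minimum for testing only through its KPF level (mean FPKM of 8.09 in KPF and 0.0567 in WPF). Its direction was thus fixed by the filter, and its call carries no weight. Stellate and fibroblast markers were called higher in 4 of 6 cases (5.83% of all tested genes), with sums of 139 to 682 CPM in KPF against 83.8 to 101 CPM in WPF. Of these, *Des* stood at 493 CPM in KPF replicate 2, the library with muscle RNA, and overlapped between the groups (54.5 and 10.2 CPM in KPF replicates 1 and 3, against 7.42 to 10.6 CPM in WPF). *Col1a1*, *Col1a2* and *Col3a1* were separate, with KPF above, and *Lrat* had a negative difference (-0.35) and was not called. *Col1a1* and *Col1a2* met the minimum for testing only through their KPF levels (mean FPKM of 3.23 and 4.01 in KPF, 0.737 and 0.96 in WPF). As for *Cfd*, their calls and their separation carry no weight. The part of either list in the differences of the members was not tested.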

How the data were processed

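Liver poly(A) RNA of 3 KPF and 3 WPF dams was sequenced. For each of 56691 genes the authors deposited a read count and an FPKM value, with GRCm39 coordinates. The FPKM values were recomputed from the deposited counts, exonic lengths and totals with a largest difference of 0.0. The submitters' processing notes name cutadapt 1.9.1, HISAT2 2.2.1, HTSeq 0.6.1 and DESeq2. The strand setting is not given in the sources used here. The symbol table matched 52073 gene IDs.

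KPF was compared with WPF by edgeR 4.0.16 (quasi-likelihood test, TMM, R 4.3.3) over the 10866 genes whose mean FPKM was 1 or more, and p values were adjusted by Benjamini-Hochberg. Ratios were tested by exact two-sided permutation of log2 FPKM ratios. Each library was taken as 1 dam, which the labels do not state outright, so p values measure the spread between these 6 libraries, which may be partly technical. The members and lists were chosen with earlier results of these data known. The genes named were all 10 members, *Mlxipl*, up to 3 called genes of each list by smallest p (otherwise the 1 with the smallest p) and the 5 genes most alike to *Gpam*. The tests were checked on simulated counts. Alternatives were other scalings, filters and tools (limma 3.58.1, DESeq2 1.42.0), a replicate block and leaving out each library, and 2 more were chosen after seeing the data: leaving out mitochondrial genes, and the *Dbp* to *Arntl* ratio as a covariate. Replicate numbers 2 and 3 occur in both groups but name different dams. Numbers 1 and 4 occur in a single group each, so the replicate block compares replicates 2 and 3 alone. Genes overlapping a member had at most 7 reads per library, apart from *Egfl7*. Promoter windows were those of RefSeq on GRCm38.p6, and no coordinate was moved between builds.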

Additional observations from a re-analysis of the deposited data

How the results depend on the processing

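*Gpam* was called lower in all 17 alternatives (log2 difference -2.37 to -1.35, adjusted p from 0.00658 with DESeq2 to 0.823) and *Lpin1* in all 16 in which it was tested (-2.63 to -1.52, adjusted p from 0.0119 to 0.823). A mean FPKM of at least 5 left *Lpin1* untested, so 1 member was called lower there. Leaving out each library gave 2 to 3 members called lower. *Gpd1* and *Gpat4* kept their sign and stayed uncalled in all 17. *Agpat2* was called with library totals (-0.85), without a filter (-0.84), with the replicate block (-0.98) and without WPF replicate 4 (-1.12), and *Dgat2* without KPF replicate 2 (-0.81). The block, too, keeps WPF replicate 4 out of the difference. The sign turned for *Agpat3* (-0.31 to 0.21 without 1 library) without KPF replicate 2 (0.21), KPF replicate 3 (0.001) or WPF replicate 2 (0.17) and with the clock covariate (0.06), for *Lpin2* (-0.56 to 0.27 without 1 library) with the block (0.42) and without KPF replicate 1 (0.06), KPF replicate 3 (0.009) or WPF replicate 4 (0.27), and for *Dgat1* (-0.31 to 0.15 without 1 library) without WPF replicate 2 (0.15) and with the covariate (0.003). The causes were not tested. The ratios of isoenzymes kept their direction under every alternative run.

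Over all genes, those at an adjusted p under 0.05 numbered 156 with DESeq2, 1 under limma at log2(FPKM + 0.1), 0 at log2(FPKM + 1), 286 without a filter and 0 to 5 without 1 library. Genes called higher numbered 371 with library totals, 238 and 257 under limma at log2(FPKM + 1) and log2(FPKM + 0.1), 1576 without a filter, 255 at a mean FPKM of at least 5 and 324 to 910 without 1 library. Genes called lower numbered 716 with library totals, 681 under limma at log2(FPKM + 0.1), 910 without a filter, 205 at a mean FPKM of at least 5 and 246 to 709 without 1 library. The share of called genes that were higher was 59.5% with TMM, 34.1% with library totals and 30.1% and 27.4% with limma, and library totals moved the median log2 difference of all genes to -0.12.

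No pairing of the dams by replicate number was seen (correlation of deviations 0.064 for number 2 and -0.043 for number 3), but so few libraries cannot exclude one. In the replicate block, KPF replicate 1 and WPF replicate 4 are each alone in their number and do not enter the difference. It thus rests on replicates 2 and 3 of both groups, without the WPF library closest to KPF in *Gpam*. With the replicate block, 680 genes were called higher and 551 lower, *Gpam* was at -2.35 and *Lpin1* at -2.41, and the log2 ratio differences were -2.84 for *Gpam* to *Gpat4*, -0.59 for *Agpat2* to *Agpat3*, -2.88 for *Lpin1* to *Lpin2* and -0.13 for *Dgat2* to *Dgat1*. With 3 dams in each group the confidence intervals of the 7 uncalled tested members still hold changes of up to 0.72 (*Dgat1*) to 1.70 (*Agpat2*) on the log2 scale toward lower or higher levels, and *Mogat1* had too few reads for any comparison.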

Other observations

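Phosphatidic acid and diacylglycerol also feed phospholipid synthesis, and a list of 15 genes of that branch had 12 tested genes. Of these, 2 were called lower and 0 higher (3.98% and 5.83% of all tested genes). The median log2 difference was -0.31 beside -0.51 for the triglyceride synthesis genes and 0.02 for all tested genes. *Pemt*, which makes phosphatidylcholine by methylation in liver, measured 83.4, 111 and 81.4 CPM in KPF, against 179, 125 and 149 CPM in WPF, without overlap (log2 difference -0.72, edgeR unadjusted p = 0.0235, adjusted p = 0.430). The call was lost without KPF replicate 1 (-0.65), KPF replicate 3 (-0.64) or WPF replicate 2 (-0.58) and with the replicate block (-0.66). *Etnk1*, an ethanolamine kinase, measured 24.2, 18.0 and 34.5 CPM in KPF, against 38.0, 47.4 and 37.4 CPM in WPF, also without overlap (-0.68, edgeR unadjusted p = 0.0378, adjusted p = 0.447). It was called in 2 of the 6 fits that left out a library and not when KPF replicate 1, KPF replicate 2, WPF replicate 2 or WPF replicate 3 was absent (-0.73 to -0.49). Neither gene passed Benjamini-Hochberg adjustment.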
